A study of Mus musculus with 35 samples.

Results

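The TSC22 domain genes, with *Gilz* (*Tsc22d3*) at their centre, and 2 further classic glucocorticoid (GC) target genes, *Ddit4* and *Sgk1*, were followed through every condition of an RNA-seq experiment on mouse bone marrow-derived macrophages (BMDMs). The 6 genes *Tsc22d3*, *Tsc22d1*, *Tsc22d2*, *Tsc22d4*, *Ddit4* and *Sgk1* were chosen by symbol, as known GC targets or as relatives of *Gilz*. Each matched 1 of the 47069 Ensembl gene identifiers in the expression tables. All 6 had a mean of at least 1 FPKM over the libraries, as had 11354 genes in all. FPKM counts sequenced fragments per kilobase of transcript and of sequencing depth.

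The BMDMs were grown from the bone marrow of C57BL/6 wild-type and AMPKa1-/- mice, the label for animals that lack the alpha1 catalytic subunit of the energy sensor AMPK. All cultures had been differentiated with medium conditioned by L929 cells, so every group, controls included, shares that source of macrophage growth factor. For 24 h the cells received vehicle (DMSO), dexamethasone (Dex, a synthetic GC, at 100 nM), lipopolysaccharide (LPS, at 100 ng/ml), LPS + Dex, damage-associated molecular patterns (DAMPs, at 1 µg/ml, of a composition that the labels do not give) or DAMPs + Dex. There were 17 wild-type and 18 AMPKa1-/- libraries, with 3 libraries in each of the 12 groups except wild-type LPS, for which replicates 2 and 3 were used and replicate 1 was not analysed here. The labels give neither age nor sex, and the methods of the study describe adult mice in cohorts of both sexes. In every library *Xist* was at 0.0283 FPKM or less and the Y-linked gene *Ddx3y* at 13.6 FPKM or more, genes chosen after their values were seen. By the general methods a replicate is a culture from an individual mouse unless stated otherwise, but no label ties a library to a mouse, so p-values measure the spread between these libraries, part of which may be technical. The steps between low FPKM values correspond to 15837203 to 31955298 fragments per library, at which depth 1 fragment on a 1-kb transcript is worth 0.0313 to 0.0631 FPKM.

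GCs bind the glucocorticoid receptor (GR), which moves to the nucleus and acts on genes that carry GC response elements or that other transcription factors control. GILZ, the short leucine zipper protein made from *Tsc22d3*, is among the best known GR-induced products in macrophages and binds NF-κB and AP-1. *Tsc22d1*, *Tsc22d2* and *Tsc22d4* encode relatives with the same TSC box and leucine zipper. DDIT4 (REDD1) restrains the growth kinase complex mTORC1, and SGK1 is a kinase of the AGC family that acts on ion channels, the ubiquitin ligase NEDD4L and FOXO transcription factors.

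The genes lie on 5 chromosomes of the mouse genome (GRCm38, GENCODE M21 annotation). *Tsc22d3* (ENSMUSG00000031431) is at chrX:140539528-140600659 on the minus strand, *Tsc22d1* (ENSMUSG00000022010) at chr14:76414961-76507765, *Tsc22d2* (ENSMUSG00000027806) at chr3:58414715-58466783 and *Tsc22d4* (ENSMUSG00000029723) at chr5:137745730-137768450, these last on the plus strand. *Ddit4* (ENSMUSG00000020108) at chr10:59949669-59951834 on the minus strand and *Sgk1* (ENSMUSG00000019970) at chr10:21882184-21999903 on the plus strand share chromosome 10.

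Since GR acts through response elements, the RefSeq promoter windows of GRCm38.p6 (250 bases before to 50 after a start) were searched on both strands for the GC response element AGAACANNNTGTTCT. Windows were given for *Tsc22d3* (3 starts), *Tsc22d1* (5), *Ddit4* (1) and *Sgk1* (6), and none was used for *Tsc22d2* or *Tsc22d4*. The full element was found in 3 of 32851 windows of all genes (0.00913%), and 1 of these belongs to *Sgk1*. It lies at chr10:21993701-21993715, on the plus strand, with its first base 189 bases before the start at 21993890. The stretch chr10:21993661-21993755 around it is shown with the element in capitals, and it falls in introns of 5 *Sgk1* transcripts with no exon over it. A second *Sgk1* window, before the start at 21986104, holds a version at chr10:21985921-21985935 with 2 mismatches in the 12 set bases, a degree of likeness met in 1.84% of windows, and is shown from chr10:21985881-21985975. In *Tsc22d3* the AGAACA half-site, present in 19.0% of windows and contained in the full element, was matched at chrX:140600702-140600707 on the strand opposite to the gene, 185 bases before the start at 140600522. It is shown in capitals, as read on the gene's minus strand, in the stretch chrX:140600662-140600747.
Sgk1 full element: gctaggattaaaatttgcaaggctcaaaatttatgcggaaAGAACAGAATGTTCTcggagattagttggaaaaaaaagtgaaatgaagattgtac
Sgk1 element with 2 mismatches: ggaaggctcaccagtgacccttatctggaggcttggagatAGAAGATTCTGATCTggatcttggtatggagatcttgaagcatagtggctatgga
Tsc22d3 half-site: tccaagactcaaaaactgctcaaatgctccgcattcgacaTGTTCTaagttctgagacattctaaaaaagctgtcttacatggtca

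*Tsc22d1* had 1 half-site in its windows and *Ddit4* none. The forkhead motif GTAAACA (3.65% of all windows) and the cAMP response element TGACGTCA (1.79%) were not matched in any window of the members. These matches describe letters in short windows and do not show where GR was bound.

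The labels were checked before the members were compared. *Prkaa1*, which encodes AMPKa1, was measured at 8.59, 15.3 and 26.1 FPKM (lowest, median and highest) in the 17 wild-type libraries and at 9.05, 15.1 and 24.0 FPKM in the 18 libraries labelled AMPKa1-/-, so the ranges overlapped almost entirely. Its genotype difference over the 6 treatments was −0.04 on the log2(FPKM + 1) scale (SE 0.10, adjusted p = 0.77, limma). A deletion of part of the gene can leave FPKM over the whole gene in place, so this value does not check the genotype, and the groups are named here as the labels name them. The LPS and Dex labels were matched by the cytokine genes. *Tnf* was at 11.2, 7.75 and 12.5 FPKM in wild-type vehicle libraries, at 331 and 455 with LPS and at 20.8, 22.0 and 30.3 with LPS + Dex. *Cxcl10*, an interferon-induced chemokine, went from 1.26, 1.04 and 1.60 to 813 and 1302 with LPS and was at 0.65, 0.26 and 2.4 with LPS + Dex.

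Macrophage markers were abundant in all 35 libraries. All 8 markers had a mean above 1 FPKM, and their sum ranged from 12931 to 39134 FPKM (median 27898), most of it *Lyz2* (10343 to 35906). Of the neutrophil list 4 of 8 genes reached that mean, with a sum of 5.26 to 134 FPKM and *Mmp8* as the most abundant. Sums were 0.663 to 35.2 FPKM for 6 T cell genes (mostly *Cd4*), 0.342 to 3.19 for 5 B cell genes, 0.324 to 1.82 for 5 dendritic cell genes, 1.47 to 25.0 for 7 stromal genes, 0 to 0.878 for 6 mast cell and basophil genes (*Tpsb2* listed at 0 throughout) and 0 to 0.333 for the erythroid genes. One transcript, the acute-phase gene *Saa3*, took 16.0 to 24.0% of all FPKM in the LPS + Dex libraries and 0.00767 to 7.58% in the others. In bulk RNA, fewer cells that express a gene and less of its RNA per cell cannot be told apart.

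*Gilz* itself showed the widest swing of the family, rising about an order of magnitude with Dex and falling to a few FPKM with LPS. In wild-type BMDMs *Tsc22d3* was measured at 54.3, 51.7 and 54.6 FPKM with vehicle, 724, 667 and 736 with Dex, 2.48 and 3.50 with LPS, 248, 257 and 210 with LPS + Dex, 60.9, 57.1 and 73.9 with DAMPs, and 827, 892 and 788 with DAMPs + Dex. In AMPKa1-/- BMDMs the values were 53.3, 48.3 and 52.9 with vehicle, 744, 840 and 899 with Dex, 1.56, 3.16 and 2.50 with LPS, 129, 167 and 185 with LPS + Dex, 58.3, 55.4 and 71.6 with DAMPs, and 895, 800 and 1071 with DAMPs + Dex. The order of the group means was the same in both genotypes, DAMPs + Dex, Dex, LPS + Dex, DAMPs, vehicle and LPS. In wild-type cells no neighbours in that order overlapped, and in AMPKa1-/- cells DAMPs + Dex and Dex did, although the step from vehicle to DAMPs did not pass the test in either genotype.

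**Figure D1:**
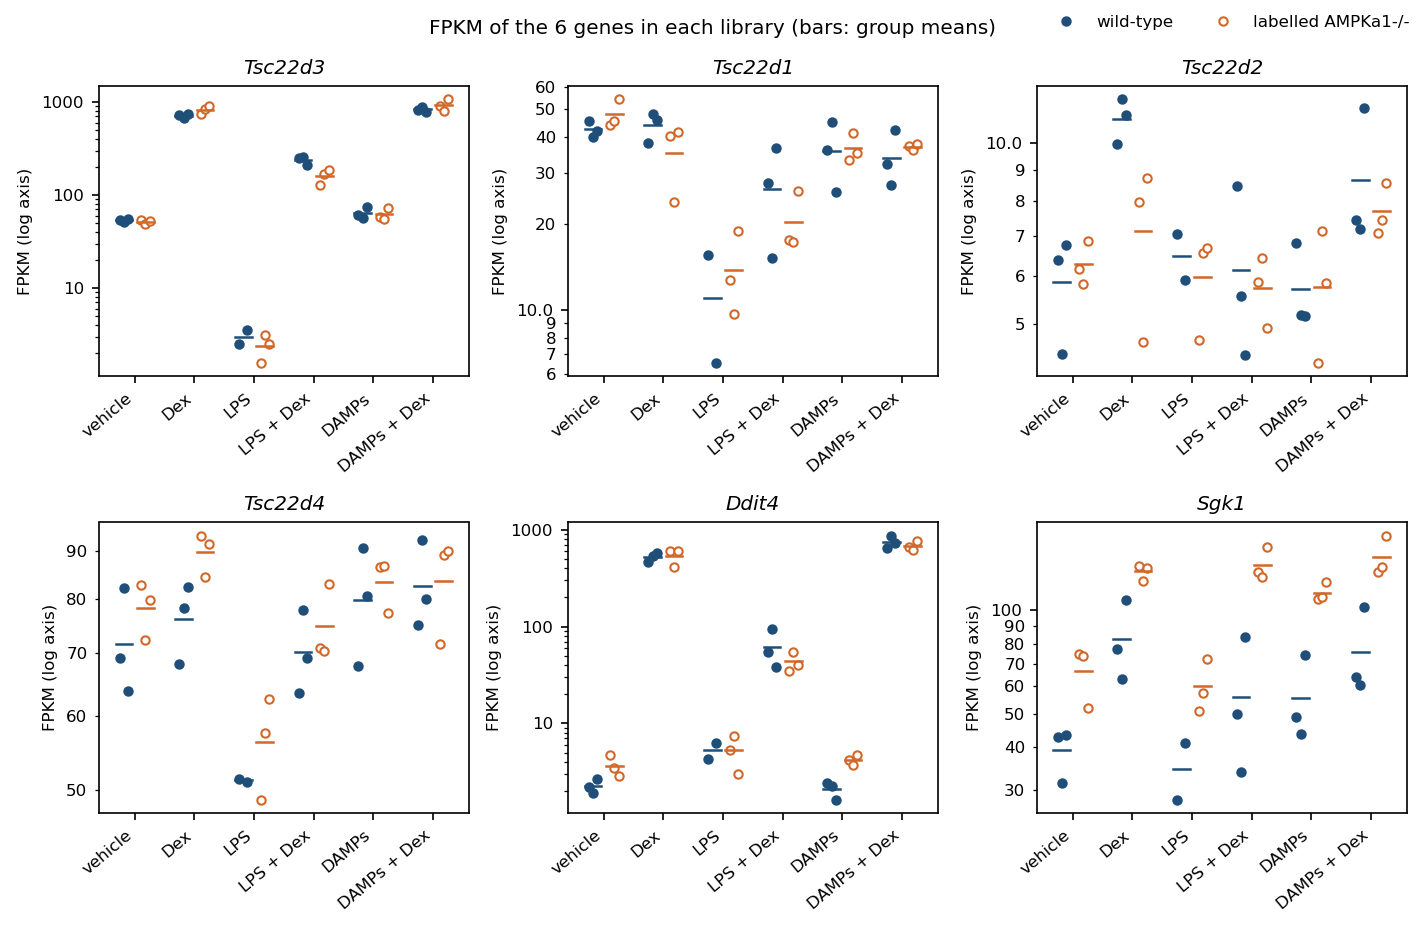
FPKM of the 6 genes in each library (log axis), with wild-type and AMPKa1-/- libraries side by side in the 6 treatments and a bar at each group mean. The *Tsc22d3* points fall from 667 FPKM or more with Dex to 3.50 FPKM or less with LPS in both genotypes, and the *Sgk1* points of AMPKa1-/- libraries lie above those of wild-type libraries in every treatment.

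Dex raised mean *Tsc22d3* 13.2-fold over vehicle in wild-type BMDMs and 16.1-fold in AMPKa1-/- BMDMs. The fitted log2 changes were 3.70 (SE 0.15, adjusted p = 2.0e-16) and 3.98 (SE 0.15, adjusted p = 1.9e-17). On top of DAMPs the mean rose 13.1-fold and 14.9-fold, with log2 changes of 3.69 (SE 0.15, adjusted p = 1.1e-16) and 3.88 (SE 0.15, adjusted p = 4.6e-17). Fold values are ratios of mean FPKM, whereas log2 changes are on the log2(FPKM + 1) scale, which understates changes of genes at a few FPKM.

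LPS alone lowered mean *Tsc22d3* 17.9-fold below vehicle in wild-type and 21.4-fold in AMPKa1-/- BMDMs (log2 changes of −3.78, SE 0.17, adjusted p = 9.1e-17, and −3.97, SE 0.15, adjusted p = 2.0e-18). Adding Dex to LPS then raised it 79.7-fold and 66.7-fold (log2 5.91, SE 0.17, adjusted p = 2.6e-20, and 5.58, SE 0.15, adjusted p = 1.3e-20). The LPS + Dex level nevertheless stayed 2.98-fold below that with Dex alone in wild-type cells and 5.16-fold below in AMPKa1-/- cells. All LPS + Dex libraries lay above all vehicle libraries and below all Dex libraries. The calls on *Tsc22d3* held in every alternative setting and without any single library. The marker sums moved with the same treatments. In wild-type cells the macrophage sum was 21186 to 27038 FPKM with vehicle, 13959 to 17213 with LPS and 27898 to 31845 with LPS + Dex, and the neutrophil sum 5.26 to 19.4, 114 to 134 and 34.3 to 52.9. In AMPKa1-/- cells the macrophage sum was 21944 to 32609, 12931 to 22871 and 27090 to 39134 FPKM, and the neutrophil sum 25.7 to 39.1, 102 to 121 and 35.2 to 43.4. The T cell sum in wild-type cells was 15.8 to 18.3 FPKM with vehicle, 1.98 to 2.19 with LPS and 1.38 to 4.54 with LPS + Dex. In AMPKa1-/- cells this sum was 7.06 to 11.7, 1.45 to 1.52 and 0.663 to 1.40. The part of these marker sums in the changes of *Tsc22d3* and the other members was not tested.

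Among the relatives of *Gilz*, *Tsc22d1* and *Tsc22d4* were lower with LPS, *Tsc22d1* by the larger amount. In wild-type BMDMs *Tsc22d1* was at 45.6, 40.1 and 42.0 FPKM with vehicle, 38.1, 48.1 and 45.8 with Dex, 15.5 and 6.53 with LPS and 27.6, 15.2 and 36.5 with LPS + Dex. In AMPKa1-/- BMDMs it was at 44.2, 45.6 and 54.2 with vehicle, 40.2, 23.7 and 41.6 with Dex, 12.7, 9.70 and 18.8 with LPS and 17.5, 17.2 and 25.9 with LPS + Dex. The LPS libraries lay below the vehicle libraries in both genotypes, and those with LPS + Dex overlapped those with LPS. Mean *Tsc22d1* was 3.85-fold lower with LPS than with vehicle in wild-type cells (log2 −1.96, SE 0.31, adjusted p = 5.3e-06) and 3.50-fold lower in AMPKa1-/- cells (log2 −1.78, SE 0.28, adjusted p = 3.5e-06). The wild-type LPS libraries lay apart, and the difference was −1.39 without LPS replicate 3 and −2.53 without LPS replicate 2. These fits, like all below that leave out 1 of the 2 wild-type LPS libraries, take the spread of the lone library from the other groups. Adding Dex to LPS gave a log2 difference of 1.21 (SE 0.31, adjusted p = 0.0031) in wild-type cells, a call lost without LPS replicate 3 (0.65, adjusted p = 0.20) or when those groups were fitted alone (adjusted p = 0.12). In AMPKa1-/- cells that difference was 0.55 (adjusted p = 0.13), and 0.34 to 0.79 without single libraries. It passed in 1 of 15 alternative settings, without LPS replicate 3 (0.79, adjusted p = 0.048). *Tsc22d1* with DAMPs and with DAMPs + Dex ranged from 25.7 to 45.2 FPKM over both genotypes, and neither step was called.

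*Tsc22d2* ranged from 4.31 to 11.8 FPKM over the 35 libraries and was the least abundant of the family in all but the LPS libraries, where *Tsc22d3* was lower. With Dex it rose in wild-type BMDMs from 6.38, 4.46 and 6.76 FPKM to 9.94, 11.8 and 11.1 (log2 0.81, SE 0.21, adjusted p = 0.0041), and the groups did not overlap. In AMPKa1-/- BMDMs vehicle was at 6.17, 5.83 and 6.87 and Dex at 7.98, 4.67 and 8.73 FPKM, and the groups overlapped because Dex replicate 2 was low. The log2 difference there was 0.12 (SE 0.21, adjusted p = 0.71). It was −0.03 to 0.36 over 15 alternative settings, which include leaving out that library, and passed in none. The genotype difference of the Dex effect was −0.69 (95% interval −1.30 to −0.08), with an unadjusted p of 0.027 and an adjusted p of 0.2 (limma). On DAMPs in wild-type cells *Tsc22d2* was at 6.82, 5.18 and 5.15 FPKM without and 7.43, 7.20 and 11.4 FPKM with Dex. These groups did not overlap, and the log2 difference of 0.51 (SE 0.21, adjusted p = 0.079) passed when centred (0.50, adjusted p = 0.016) or after quantile normalization (0.54, adjusted p = 0.007).

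*Tsc22d4*, which is known as a regulator of lipid and glucose handling in liver, varied least. In wild-type BMDMs it was at 69.1, 82.1 and 63.8 FPKM with vehicle, 51.3 and 51.0 with LPS and 63.5, 77.9 and 69.2 with LPS + Dex. In AMPKa1-/- BMDMs it was at 82.8, 72.3 and 79.8 with vehicle, 48.8, 57.5 and 62.6 with LPS and 70.9, 70.3 and 83.1 with LPS + Dex. The LPS libraries lay below both other groups in each genotype. The log2 change with LPS was −0.47 in wild-type (SE 0.14, adjusted p = 0.0044) and −0.47 in AMPKa1-/- cells (SE 0.12, adjusted p = 0.0013), beside medians over all genes tested of −0.19 and −0.30. With the libraries centred on one median it was −0.32 (adjusted p = 0.11) and −0.20 (adjusted p = 0.28), so relative to the median gene the fall was not called. Adding Dex to LPS raised *Tsc22d4* by 0.45 (SE 0.14, adjusted p = 0.012) and 0.41 (SE 0.12, adjusted p = 0.009). The wild-type call was lost without LPS + Dex replicate 2, LPS replicate 2 or LPS replicate 3 (adjusted p = 0.064 to 0.066), and the AMPKa1-/- call without LPS + Dex replicate 3 (adjusted p = 0.06) or LPS replicate 1 (adjusted p = 0.073).

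Since FPKM is scaled by transcript length, the members of the family were set against each other as shares of their summed FPKM. *Tsc22d3* made up 29.0 to 32.7% of the family's FPKM in wild-type vehicle libraries, 82.8 to 86.2% with Dex, 3.2 to 5.2% with LPS and 65.6 to 72.3% with LPS + Dex. In AMPKa1-/- libraries its share was 27.3 to 28.6% with vehicle, 84.0 to 88.2% with Dex, 2.3 to 4.1% with LPS and 57.8 to 64.0% with LPS + Dex. *Tsc22d4* was the most abundant member with vehicle, at 38.2 to 46.0% in wild-type and 41.2 to 44.4% in AMPKa1-/- libraries, and took 67.1 to 76.2% and 69.1 to 74.8% with LPS. The family was therefore led by *Tsc22d4* without GC and by *Tsc22d3* in every library that had received Dex.

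**Figure D2:**
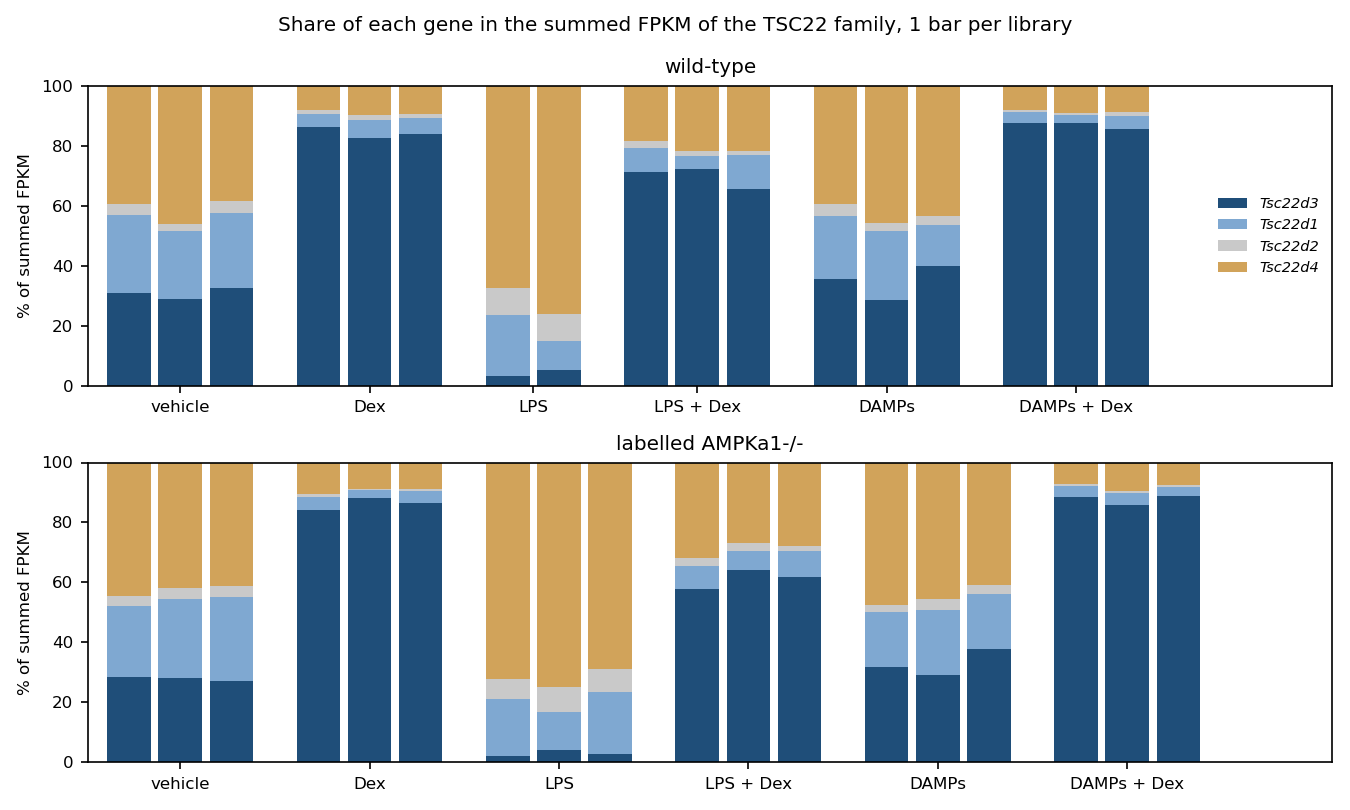
Share of the summed FPKM of the 4 TSC22 domain genes taken by each gene (percent), with 1 stacked bar per library, by treatment, in wild-type (upper panel) and AMPKa1-/- cells (lower panel). *Tsc22d3* fills most of each bar with Dex, LPS + Dex and DAMPs + Dex and 2.3 to 5.2% of the bars with LPS.

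*Ddit4* had the largest fold change of the 6 genes with Dex, from 1.64 to 4.77 FPKM in vehicle and DAMPs libraries to 409 FPKM or more with Dex. In wild-type BMDMs *Ddit4* was at 2.19, 1.94 and 2.70 FPKM with vehicle, 464, 528 and 570 with Dex, 4.30 and 6.35 with LPS, 54.3, 93.5 and 38.2 with LPS + Dex, 2.41, 2.25 and 1.64 with DAMPs, and 640, 865 and 731 with DAMPs + Dex. In AMPKa1-/- BMDMs it was at 4.68, 3.50 and 2.87 with vehicle, 608, 409 and 599 with Dex, 5.35, 7.44 and 3.01 with LPS, 35.1, 55.2 and 40.5 with LPS + Dex, 4.24, 3.70 and 4.77 with DAMPs, and 660, 616 and 758 with DAMPs + Dex. The 3 treatments that held Dex did not overlap with those that did not, and LPS + Dex lay well below both other Dex groups.

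Mean *Ddit4* was 228-fold higher with Dex than with vehicle in wild-type and 146-fold higher in AMPKa1-/- cells (log2 7.31, SE 0.25, adjusted p = 3.4e-18, and 6.84, SE 0.25, adjusted p = 1.3e-17). On DAMPs it was 355-fold and 160-fold higher (log2 7.91, SE 0.25, adjusted p = 4.3e-19, and 7.02, SE 0.25, adjusted p = 1.0e-17). On LPS it was 11.6-fold and 8.27-fold higher (log2 3.24, SE 0.28, adjusted p = 3.9e-10, and 2.87, SE 0.25, adjusted p = 2.9e-10). LPS alone went with a level 2.34-fold above vehicle in wild-type cells (log2 0.93, SE 0.28, adjusted p = 0.006), a call lost without LPS replicate 3 (0.70, adjusted p = 0.11). In AMPKa1-/- cells the log2 difference was 0.37 (adjusted p = 0.2), and 0.13 to 0.66 without single libraries. It passed in 3 of 15 alternative settings. These were the libraries centred on one median (0.65, adjusted p = 0.018), quantile normalization (0.79, adjusted p = 0.0042) and the fit without LPS replicate 3 (0.66, adjusted p = 0.029).

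*Sgk1* rose about 2-fold with Dex over vehicle and lay higher in AMPKa1-/- than in wild-type BMDMs. In wild-type BMDMs *Sgk1* was at 42.7, 31.4 and 43.4 FPKM with vehicle, 77.2, 63.2 and 107 with Dex, 28.1 and 41.0 with LPS, 49.8, 33.8 and 83.6 with LPS + Dex, 49.0, 43.5 and 73.9 with DAMPs, and 63.9, 60.8 and 102 with DAMPs + Dex. In AMPKa1-/- BMDMs it was at 74.8, 73.4 and 51.8 with vehicle, 135, 122 and 133 with Dex, 51.0, 57.3 and 72.1 with LPS, 129, 125 and 153 with LPS + Dex, 108, 109 and 121 with DAMPs, and 129, 134 and 165 with DAMPs + Dex. Every AMPKa1-/- library lay above every wild-type library of the same treatment. Within wild-type cells, replicate 2 was the lowest and replicate 3 the highest in all 5 treatments with 3 libraries.

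Dex raised mean *Sgk1* 2.10-fold over vehicle in wild-type (log2 1.04, SE 0.25, adjusted p = 0.0025) and 1.95-fold in AMPKa1-/- cells (log2 0.97, SE 0.25, adjusted p = 0.0045). On LPS the rise was called in AMPKa1-/- cells (2.26-fold, log2 1.17, SE 0.25, adjusted p = 4.4e-04). In wild-type cells it was 1.61-fold (log2 0.60, SE 0.28, adjusted p = 0.10), and log2 0.27 to 0.91 without single libraries. This rise passed without LPS + Dex replicate 2 (0.91, adjusted p = 0.014) and with the replicate block (0.64, adjusted p = 0.0051). LPS alone gave log2 differences of −0.19 and −0.14 (adjusted p = 0.6 and 0.63). With DAMPs the differences from vehicle were 0.47 (adjusted p = 0.62) in wild-type and 0.76 (adjusted p = 0.095) in AMPKa1-/- cells. The latter passed when AMPKa1-/- libraries were fitted alone (adjusted p = 0.0056). The DAMPs and vehicle groups did not overlap in either genotype. Adding Dex to DAMPs was not called (0.43, adjusted p = 0.23, and 0.33, adjusted p = 0.37). The wild-type difference passed with the replicate block (adjusted p = 0.035).

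Counted over the 6 genes, the Dex effect was shared by *Tsc22d3*, *Ddit4* and *Sgk1*. In wild-type cells 4 genes rose (with *Tsc22d2*) and none fell. There 30.9% of the 11354 genes tested were called, 1810 higher and 1696 lower (1648 and 2011 when centred). In AMPKa1-/- cells 3 rose, where 27.9% were called. In the latter 1356 genes were higher and 1812 lower, or 1900 and 1688 after quantile normalization. The median log2 change of the 6 genes was 0.92 and 0.58, against 0.05 and −0.05 over all genes. On LPS, Dex raised 4 of 6 in each genotype, *Tsc22d3*, *Ddit4* and *Tsc22d4* with *Tsc22d1* in wild-type and *Sgk1* in AMPKa1-/- cells, where 34.1% and 37.7% of all genes were called. The wild-type count was 2 without LPS replicate 3. On DAMPs, Dex raised *Tsc22d3* and *Ddit4* in each genotype, where 24.3% and 25.3% were called, and 3 members in wild-type cells when centred, with *Tsc22d2*. Over all genes, 1887 were higher and 1984 lower with LPS + Dex against LPS in wild-type cells (2272 and 1773 when centred). In AMPKa1-/- cells these counts were 2187 and 2088. With DAMPs + Dex against DAMPs they were 1327 and 1429 in wild-type and 1482 and 1389 in AMPKa1-/- cells (1344 and 1580 when centred).

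LPS alone changed 4 of 6 genes in wild-type cells (*Tsc22d3*, *Tsc22d1* and *Tsc22d4* lower, *Ddit4* higher), where 55.7% of all genes were called, and the same 3 genes fell in AMPKa1-/- cells, where 64.3% were called. In wild-type cells the direction over all genes was higher for 2258 and lower for 4068 (2886 and 3351 with the libraries centred on one median), and 2295 and 5004 in AMPKa1-/- cells (3361 and 3504 when centred). Counts of members called were thus close to those of genes in general, whereas the *Tsc22d3* fall of −3.78 and −3.97 stood beside medians of −0.19 and −0.30. DAMPs alone changed none of the 6 genes by limma at an adjusted p of 0.05, with 0 genes in wild-type and 1 in AMPKa1-/- cells at an unadjusted p below 0.05, where 2.01% and 4.13% of all genes were called.

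**Figure D3:**
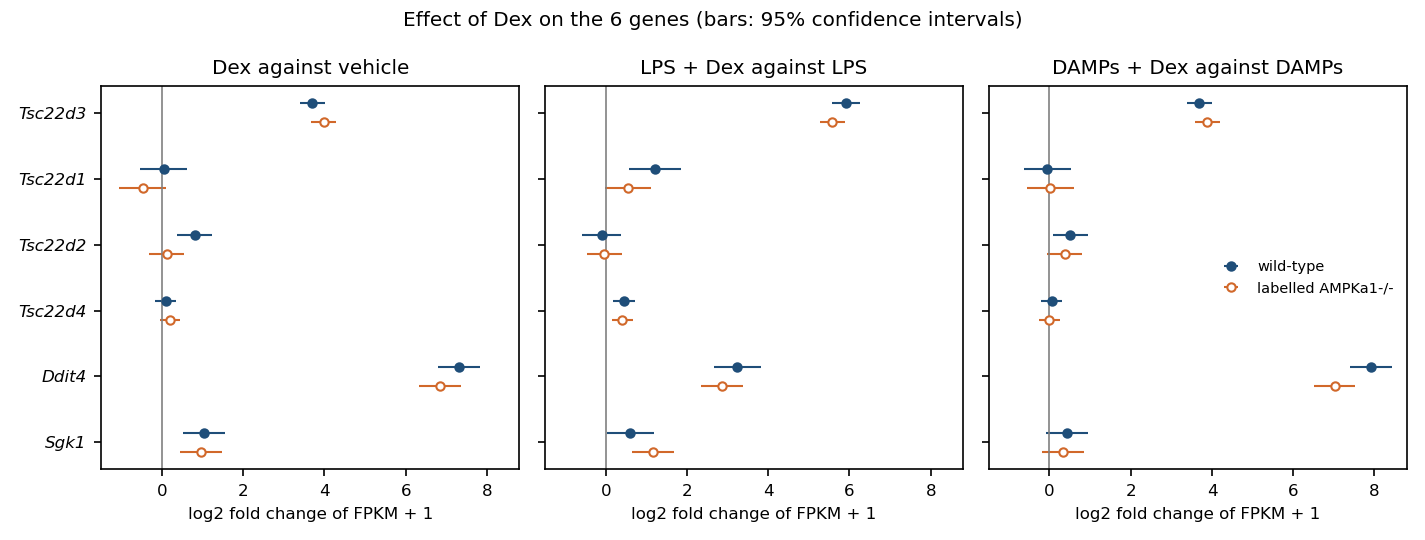
Fitted log2 change with Dex of each of the 6 genes (log2(FPKM + 1) scale, bars are 95% intervals) over vehicle, LPS and DAMPs in 3 panels, with wild-type and AMPKa1-/- cells as filled and open points. *Tsc22d3* and *Ddit4* stand clear of zero throughout, and on LPS *Tsc22d3* lies farther right (5.91 in wild-type) and *Ddit4* farther left (3.24) than in the other panels.

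*Tsc22d3* and *Ddit4* thus both rose with Dex on LPS, but to an unequal extent. Relative to vehicle, the log2 effect of Dex was larger on LPS for *Tsc22d3* and smaller for *Ddit4*. The Dex effect on LPS minus that on vehicle was 2.21 for *Tsc22d3* in wild-type cells (SE 0.23, 95% interval 1.75 to 2.68, adjusted p = 2.4e-08) and 1.60 in AMPKa1-/- cells (SE 0.21, 95% interval 1.16 to 2.04, adjusted p = 1.4e-06). For *Ddit4* it was −4.08 (SE 0.38, 95% interval −4.85 to −3.30, adjusted p = 4.0e-09) and −3.97 (SE 0.36, 95% interval −4.70 to −3.24, adjusted p = 1.6e-09). The larger *Tsc22d3* effect started from the low LPS level of 2.48 to 3.50 FPKM in wild-type cells, while its LPS + Dex level stayed under that with Dex.

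*Tsc22d1* (1.17, SE 0.42, adjusted p = 0.034) and *Tsc22d2* (−0.91, SE 0.31, adjusted p = 0.027) also passed in wild-type cells, in 12 and 13 of 20 alternative settings. Without LPS replicate 3, *Tsc22d1* was at 0.60 (adjusted p = 0.31), and without LPS + Dex replicate 3 it was at 0.91 (adjusted p = 0.11). Without LPS replicate 2, *Tsc22d2* was at −0.80 (adjusted p = 0.12), and without LPS + Dex replicate 3 it was at −0.73 (adjusted p = 0.087), so the count of 4 members became 2 without that library. In AMPKa1-/- cells *Tsc22d1* was at 1.02 (adjusted p = 0.054), which passed with that genotype fitted alone (adjusted p = 0.021), with the groups alone (0.048) and without Dex replicate 1 (0.047), Dex replicate 3 (0.042) or LPS replicate 3 (0.022). Over all genes 32.0% were called in wild-type cells (1688 higher and 1940 lower, and 2179 and 1661 when centred) and 28.4% in AMPKa1-/- cells.

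The levels reached with Dex in the presence and absence of LPS were also compared directly, a comparison added after the values had been seen. With LPS + Dex, 5 of 6 genes were lower than with Dex in wild-type cells, where 66.3% of all genes were called, and 3 of 6 in AMPKa1-/- cells, where 57.9% were called. The median over all genes was −0.31 and −0.23, and the calls were 2296 higher and 5230 lower (3472 and 3486 when centred) in wild-type and 2137 and 4440 (2966 and 3255 when centred) in AMPKa1-/- cells. *Tsc22d3* differed by −1.57 (SE 0.15, adjusted p = 8.9e-10) and −2.37 (SE 0.15, adjusted p = 2.5e-13), and by −1.26 and −2.17 when centred. *Ddit4*, 8.40-fold lower in wild-type and 12.4-fold lower in AMPKa1-/- cells, differed by −3.14 (adjusted p = 2.5e-11) and −3.60 (adjusted p = 1.6e-12), and by −2.83 and −3.40 when centred. The falls of *Tsc22d3* and *Ddit4* were thus called with and without centring, although the part of the *Saa3* share of FPKM in them was not tested. *Sgk1* (−0.62, adjusted p = 0.033), *Tsc22d1* (−0.79, adjusted p = 0.016) and *Tsc22d2* (−0.77, adjusted p = 0.0021) were the other genes lower in wild-type cells. Of these, *Sgk1* (−0.31, adjusted p = 0.34) and *Tsc22d1* (−0.48, adjusted p = 0.15) were not called when centred, or without LPS + Dex replicate 2 (−0.31, adjusted p = 0.29, and −0.45, adjusted p = 0.17). The *Tsc22d2* difference was −0.99 to −0.41 over 15 alternative settings, each of which kept the call. The *Sgk1* call held in only 6 of 15 alternative settings. It was also lost without Dex replicate 3 (−0.42, adjusted p = 0.18), Dex replicate 1 (adjusted p = 0.052) or LPS + Dex replicate 1 (adjusted p = 0.072), and with quantile normalization (0.077), no filter (0.071), the genotype alone (0.093) or the groups alone (0.13). In AMPKa1-/- cells the third gene was *Tsc22d1* (−0.75, adjusted p = 0.023), a call lost when centred (adjusted p = 0.099) or without Dex replicate 1 (adjusted p = 0.093) or Dex replicate 3 (adjusted p = 0.10). It was also lost without LPS + Dex replicate 1 (0.078) or 2 (0.081), after quantile normalization (0.079) and with no filter (0.056), and held in 8 of 15 alternative settings. There *Tsc22d4* differed by −0.26 (adjusted p = 0.065) and passed without LPS + Dex replicate 3 (−0.34, adjusted p = 0.035).

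Whether the genotype altered the responses was tested for 5 of them as the AMPKa1-/- effect minus the wild-type effect. None of the 6 genes passed for Dex or LPS over vehicle, LPS + Dex over LPS, DAMPs over vehicle or DAMPs + Dex over DAMPs, and neither did any of the 11354 genes tested (0% in each of the 5 tests by limma). At an unadjusted p below 0.05 there were 2441, 514, 311, 66 and 234 genes. The difference in the Dex effect was 0.28 for *Tsc22d3* (95% interval −0.16 to 0.71, adjusted p = 0.42), −0.47 for *Ddit4* (−1.20 to 0.26, adjusted p = 0.4) and −0.07 for *Sgk1* (−0.80 to 0.66, adjusted p = 0.92). On LPS it was −0.33 for *Tsc22d3* (−0.80 to 0.13), −0.37 for *Ddit4* (−1.14 to 0.41) and 0.57 for *Sgk1* (−0.21 to 1.34), each with an adjusted p of 1. On DAMPs it was 0.18 for *Tsc22d3* (−0.25 to 0.62, adjusted p = 1) and −0.89 for *Ddit4* (−1.62 to −0.16, unadjusted p = 0.019, adjusted p = 1). The intervals allow a genotype difference in the *Ddit4* response of more than 1 log2 unit. For LPS + Dex against Dex a genotype difference was not tested for any member. There *Tsc22d3* differed by −1.57 (95% interval −1.88 to −1.26) in wild-type and by −2.37 (−2.68 to −2.06) in AMPKa1-/- cells. Its LPS + Dex libraries were at 210 to 257 FPKM in wild-type and 129 to 185 FPKM in AMPKa1-/- cells.

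With vehicle alone no member was called between the genotypes, where 0.432% of all genes were. *Sgk1* was 1.70-fold higher in AMPKa1-/- cells (log2 0.75, SE 0.25, adjusted p = 0.33), and *Ddit4* differed by 0.50 (95% interval −0.01 to 1.02, adjusted p = 0.85). Over the mean of the 6 treatments, a comparison added after the values had been seen, *Sgk1* was the single member called. It was higher in AMPKa1-/- cells by 0.93 (SE 0.10, 95% interval 0.71 to 1.14, adjusted p = 3.9e-07), and by 0.88 to 0.98 over 41 alternative settings, each of which kept the call. The genotypes differed in 21.4% of the genes tested, of which 1030 were higher and 1402 lower in AMPKa1-/- cells (1508 and 1062 when centred).

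Genes that lay above wild-type with no overlap in each of the 6 treatments were few, at 23 of 11354 (0.203%), and *Sgk1* was among them. This test treats the libraries of 1 replicate number as independent. With the libraries of each number averaged over the 5 treatments that had all of them, *Sgk1* was at 5.81, 5.51 and 6.31 log2(FPKM + 1) in wild-type and at 6.83, 6.80 and 6.87 in AMPKa1-/- cells. The difference was 0.96 with an exact two-sided permutation p of 0.1, the smallest that 3 against 3 allow. The neutrophil marker *Mmp8* was another of the 23 genes, higher by 1.52 over the treatments (adjusted p = 2.8e-08), and the summed neutrophil list was at 5.26 to 19.4 FPKM in wild-type and 25.7 to 39.1 FPKM in AMPKa1-/- vehicle libraries. The sums were also apart with Dex (18.4 to 32.2 and 60.6 to 80.5 FPKM), with DAMPs (7.58 to 16.0 and 22.7 to 43.1) and with DAMPs + Dex (23.0 to 41.4 and 62.3 to 122). They overlapped with LPS (114 to 134 and 102 to 121) and with LPS + Dex (34.3 to 52.9 and 35.2 to 43.4). Over the 6 treatments 3 of the 4 neutrophil genes tested were called higher in AMPKa1-/- cells, with a median log2 difference of 1.02. The part of neutrophil transcripts in the *Sgk1* difference was not tested. The genotype and the mice that supplied each genotype cannot be told apart here.

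The GR gene *Nr3c1* was measured at 19.7 to 57.2 FPKM in wild-type and 19.6 to 45.4 FPKM in AMPKa1-/- libraries. In AMPKa1-/- cells it was at 38.8, 45.4 and 40.1 FPKM with vehicle and lower with Dex, at 26.3, 23.6 and 28.5. Wild-type Dex libraries, at 43.8, 42.5 and 34.7 FPKM, overlapped those with vehicle. These Dex values are given without a test. With LPS it fell in AMPKa1-/- cells by 0.88 on the log2 scale (adjusted p = 0.0029), a call kept without any single library. In wild-type cells it was at 42.5, 37.9 and 46.9 FPKM with vehicle and 33.0 and 19.7 with LPS, a log2 difference of −0.70 (adjusted p = 0.032). That call rests on LPS replicate 3, since the difference was −0.35 (adjusted p = 0.43) without it and −1.06 without LPS replicate 2, with the spread of the lone LPS library taken from the other groups. It was also lost without vehicle replicate 1 (adjusted p = 0.06) or replicate 3 (adjusted p = 0.087). The same call was lost with the genotype alone (adjusted p = 0.065), no filter (0.066) or the replicate block (−0.57, adjusted p = 0.068).

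Of 16 other GC-induced genes, 14 were tested. With Dex 10 rose and 1 fell in wild-type cells (median 2.38), and 11 rose and 1 fell in AMPKa1-/- cells (median 1.66), beside 1810 and 1356 of 11354 genes higher (medians 0.05 and −0.05). With LPS + Dex against LPS 10 rose and 3 fell in wild-type (median 1.37) and 10 rose and 2 fell in AMPKa1-/- cells (median 1.48), beside 1887 and 2187 of all genes higher (medians −0.03 and 0.01). With DAMPs + Dex against DAMPs 10 rose and 1 fell in each genotype (medians 2.18 and 2.35), beside 1327 and 1482 of all genes higher (medians 0.03 and 0.07). The list was chosen with earlier results of these data known. *Fkbp5*, which encodes a GR co-chaperone, went from 1.60, 1.91 and 2.23 FPKM with vehicle to 321, 355 and 346 with Dex in wild-type cells, and from 4.24 and 4.75 with LPS to 287, 297 and 198 with LPS + Dex (log2 6.88 and 5.55). *Zbtb16*, a zinc finger transcription factor, rose by 3.82 and *Dusp1*, the phosphatase of p38 and JNK, by 3.42 with Dex. The gene that fell with Dex was *Anxa1* (annexin A1, −1.32, adjusted p = 3.5e-05), named here after its values were seen.

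The Dex effect on these genes was also compared between LPS and vehicle. In wild-type cells it was larger on LPS for 3 of 14 and smaller for 9 of 14 (median −1.05), beside 1688 larger and 1940 smaller of 11354 genes (median −0.09). In AMPKa1-/- cells it was larger for 2 and smaller for 3 (median −0.24), beside 1763 larger and 1458 smaller (median 0.06). A larger effect, as for *Tsc22d3*, was thus about as common in the list as among all genes. *Glul*, encoding glutamine synthetase, was at 673, 763 and 632 FPKM with vehicle, 2384, 2298 and 2578 with Dex, 60.2 and 60.8 with LPS and 820, 968 and 724 with LPS + Dex in wild-type cells. Like *Tsc22d3* it was lowest with LPS, and its Dex effect was larger there by 1.95 (adjusted p = 2.0e-08) in wild-type and 2.18 (adjusted p = 6.9e-10) in AMPKa1-/- cells. That of *Fkbp5* was smaller on LPS, by −1.33 (adjusted p = 1.5e-04) and −1.05 (adjusted p = 9.8e-04).

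**Figure D4:**
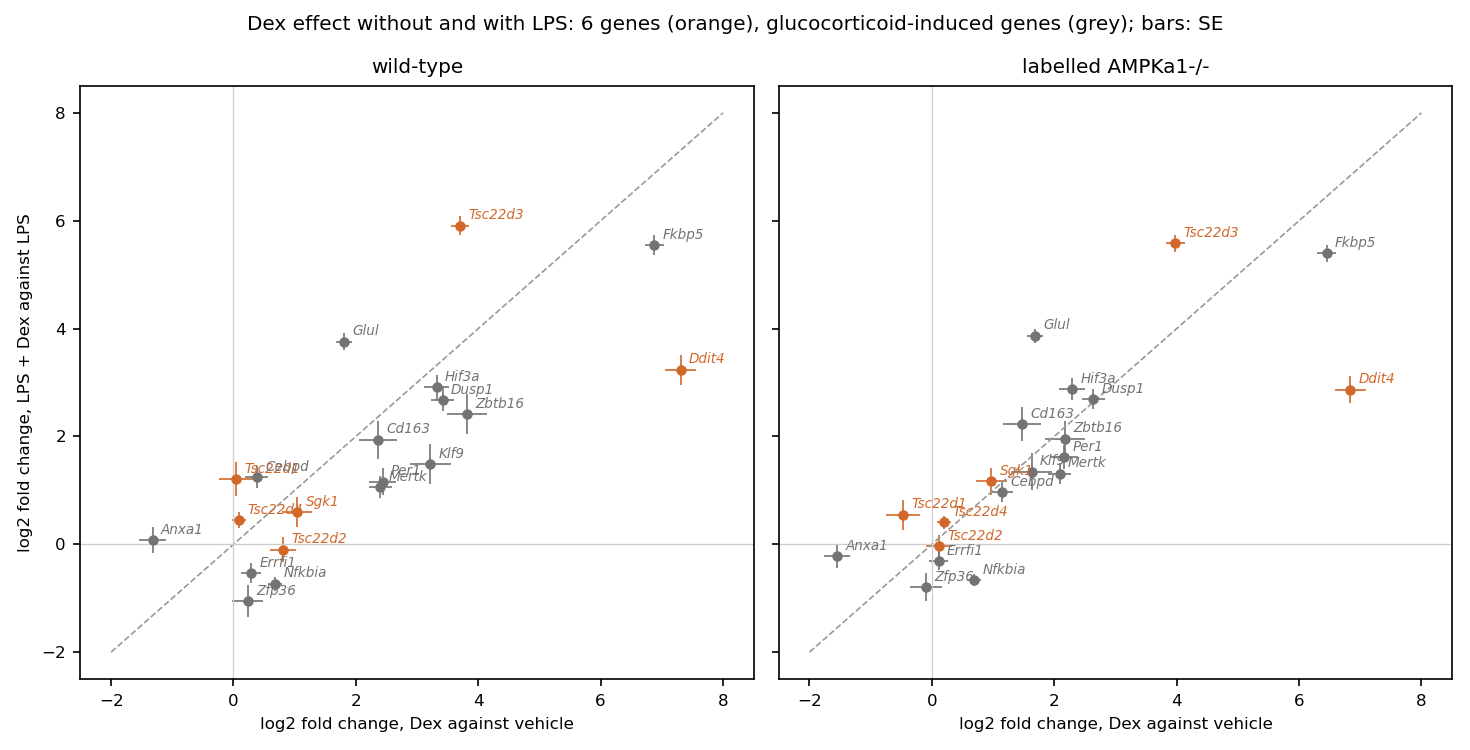
Log2 change with Dex over vehicle (horizontal axis) against that with LPS + Dex over LPS (vertical axis), both on the log2(FPKM + 1) scale, for the 6 genes (orange) and the 14 other GC-induced genes (grey), with SE bars and a dashed line of equal effects, 1 panel per genotype. *Tsc22d3* and *Glul* lie above the line in both panels and *Ddit4* and *Fkbp5* below it.

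Of the AP-1 subunits that GILZ binds, *Fos* fell with Dex in wild-type cells (−1.23, adjusted p = 3.3e-04) and in AMPKa1-/- cells (−1.92, adjusted p = 7.1e-07). With LPS + Dex against LPS both *Fos* (2.42) and *Jun* (1.63) rose in wild-type cells, as they did in AMPKa1-/- cells (2.72 and 1.31). The NF-κB subunit gene *Rela* was not called in either comparison, with log2 differences of 0.08 and −0.14 in wild-type cells.

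For the lists that follow, the shares of all genes called in either direction were the 30.9% and 27.9% given above with Dex and the 34.1% and 37.7% with LPS + Dex against LPS. Of the other regulators and subunits of mTORC1, the complex that DDIT4 restrains, 10 of 12 were tested. With Dex in wild-type cells *Deptor*, an mTOR inhibitor (1.37), and *Rptor*, the scaffold of mTORC1 (1.17), rose and *Sesn1*, a sestrin that restrains mTORC1, fell (−0.97). With LPS + Dex against LPS *Deptor* (1.84, and 4.03 with a pseudocount of 0.1 in place of 1), *Sesn1* (1.59) and *Rptor* (0.71) rose, the last a call lost without LPS + Dex replicate 2 (adjusted p = 0.065) or LPS replicate 3 (adjusted p = 0.06). Both comparisons had 2 higher and 1 lower in AMPKa1-/- cells. Of 6 tested genes of the ATF4 and hypoxia stress pathways that can induce *Ddit4*, none rose with Dex in either genotype, while 2 fell in wild-type (*Asns*, −1.43, and *Trib3*, −0.71, the latter lost without vehicle replicate 2 at −0.43, adjusted p = 0.23, or without Dex replicate 1 or 3) and 1 in AMPKa1-/- cells. With LPS + Dex against LPS 5 of 6 fell in wild-type cells, among them *Vegfa* (−1.97), *Asns* (−1.20) and *Hif1a* (−1.07), and 4 of 6 in AMPKa1-/- cells. With LPS alone 2 rose and 3 fell in wild-type cells, where 55.7% of all genes were called. In AMPKa1-/- cells 2 rose and 1 fell, where 64.3% were called.

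Among the SGK relatives, activators and substrates, 9 of 10 were tested. With Dex in wild-type cells *Pdpk1*, the kinase that activates SGK1 (0.93), *Foxo4* (0.47) and *Foxo1* (0.46), its transcription factor substrates, rose. The *Pdpk1* call was lost without Dex replicate 2 (adjusted p = 0.059) or vehicle replicate 2 (0.057), and that of *Foxo1* without the same libraries (0.13 and 0.066). None rose and 1 fell in AMPKa1-/- cells. With LPS + Dex against LPS *Foxo4* rose (0.80) and *Rictor*, a subunit of mTORC2, fell (−0.76) in wild-type cells, and 2 rose in AMPKa1-/- cells. The *Rictor* call was lost without LPS replicate 2 (−0.50, adjusted p = 0.32), LPS + Dex replicate 2 (adjusted p = 0.075) or LPS + Dex replicate 3 (adjusted p = 0.12). With LPS alone 5 of 9 fell in each genotype, beside 4068 and 5004 of all 11354 genes, a description with no test.

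Genes whose log2 levels ran most like those of the members over the 35 libraries were listed as a description, since the libraries share treatments. For *Tsc22d3* these were *Sult1a1* (Pearson r 0.98), *Kifc3* (0.97) and *Tns1* (0.97), and for *Ddit4* *Gdap2*, *Gm11827* and *Ms4a8a* (each 0.98). For *Tsc22d1* they were *Man1c1* (0.89), *Agap1* (0.88) and *Cebpa* (0.88), for *Tsc22d2* *Zfyve27* (0.92), *Edrf1* (0.91) and *Naa30* (0.90), and for *Tsc22d4* *Epn1* (0.93), *Aph1a* (0.90) and *Csnk1g2* (0.90). For *Sgk1* the r of *Nucb1* was 0.75 and that of *Gm43305* 0.72. Among the members themselves *Tsc22d3* and *Ddit4* ran most alike (0.83) and *Tsc22d2* and *Tsc22d4* least (0.12).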

How the data were processed

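Total RNA of 35 BMDM libraries was sequenced on an Illumina platform. The authors deposited FPKM values per Ensembl gene for each library. The submitters' processing notes name Bowtie2 2.2.3, TopHat2 2.0.12, HTSeq 0.6.1 and DESeq2 with builds GRCm38 and mm10, without their order. FPKM are relative values, so a transcript that takes a large share of a library lowers the others, and no counts were used here. Of low FPKM values 55.1 to 63.4% came out as whole fragments (within 0.001), too few for a count test.

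Symbols were found for 46488 of 47069 identifiers. Genes with a mean of at least 1 FPKM (11354) were fitted as log2(FPKM + 1) in 12 groups with limma 3.58.1 (R 4.3.3, trended empirical Bayes, two-sided, 23 residual degrees of freedom), with Benjamini-Hochberg adjustment at 0.05 within each comparison. Groups came from the labels. The 6 members, the gene lists and the motifs were chosen with earlier results of these data known, and 3 comparisons were added after the values had been seen (the genotype over the mean of the 6 treatments, and LPS + Dex against Dex in each genotype). Genes named from a list were up to 3 with the largest absolute change among those called in wild-type Dex or LPS + Dex comparisons, and for likeness the 3 with the highest r. A few genes that these rules name are not reported here. Promoter sequences were taken from RefSeq. On data simulated for wild-type LPS + Dex against LPS (11354 genes, 200 changed), 71 of 100 genes changed by 1 log2 unit and 99 of 100 changed by 2 were called, as were 11 of 11154 unchanged genes. Apart from the 200 changes, all groups shared the same mean and spread of each gene. In the data 34.1% of genes were called in that comparison, so these rates need not hold there. Alternatives were a pseudocount of 0.1, other filters, centring, quantile normalization, fits of fewer groups, a replicate block and leaving out each library. Where 1 of the 2 wild-type LPS libraries was left out, the lone library was assumed to vary like the other groups.

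Replicates had r of 0.967 to 0.993, and no gene had an identical value above 0 in any of 595 pairs of libraries. Same-numbered libraries deviated together (r over 0.1 in each of 3 pairs) in AMPKa1-/- Dex against vehicle (0.22 to 0.40), LPS + Dex against LPS (0.36 to 0.38) and LPS against vehicle (0.12 to 0.32) and in wild-type LPS + Dex against Dex (0.22 to 0.55), so the numbers were taken to pair the libraries there. In wild-type LPS + Dex against LPS, with 2 pairs, both were also over 0.1 (0.11 and 0.43). The general methods take replicates as cultures from individual mice, and whether libraries with the same number share a mouse is not given in the sources used here.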

Additional observations from a re-analysis of the deposited data

Results flagged for a closer look

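The Dex effect differed between LPS and vehicle by a test of the difference itself for 4 members in wild-type and 2 in AMPKa1-/- BMDMs. For *Tsc22d3* the effect on LPS was larger, by 2.21 on the log2(FPKM + 1) scale in wild-type and 1.60 in AMPKa1-/- cells. For *Ddit4* it was smaller, by −4.08 and −3.97. In wild-type cells it was larger for *Tsc22d1* (1.17) and smaller for *Tsc22d2* (−0.91). Groups of 2 or 3 libraries are too small to look for outlying libraries.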

How the results depend on the processing

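Over 67 member results, 41 of them called, 1029 of 1102 alternative values kept their direction and side of the threshold, 46 lost the call, 20 gained it and 7 reversed. No value of *Tsc22d3* did any of these in 248 alternatives, nor did the Dex effects of *Ddit4* or the Dex effects of *Sgk1* on vehicle. The 7 that reversed are uncalled *Sgk1* differences, the genotype difference in the Dex effect (0.11 when centred and −0.24 to 0.13 without single libraries) and LPS against vehicle (0.13 when centred in AMPKa1-/- cells, and −0.45 to 0.08 without single libraries in wild-type cells). Uncalled differences outside the 67 results changed sign too, such as *Tsc22d2* for wild-type LPS + Dex against LPS (−0.32 to 0.08 without single libraries). Of the 6 members, 1 in place of 0 was called for AMPKa1-/- DAMPs (*Sgk1*) when that genotype was fitted alone, with the 2 groups alone or with the replicate block (adjusted p = 0.0023). For wild-type LPS + Dex against Dex 3 in place of 5 were called when centred or quantile-normalized, and 3 to 5 without single libraries. For wild-type LPS + Dex against LPS 2 in place of 4 were called with the 2 groups alone, and 2 to 4 without single libraries. For the wild-type difference of Dex effects 2 in place of 4 were called with no filter or with the groups alone, and 2 to 4 without single libraries. Where same-numbered libraries deviated together in each of 3 pairs, the block changed no member's call. In wild-type LPS + Dex against LPS both of the 2 pairs did so (r 0.11 and 0.43), and there the block added *Sgk1*. Fits of fewer groups have fewer libraries to estimate the spread, and the cause of the other changes was not tested. Outside the comparisons with 3 such pairs, the replicate block added *Sgk1* for wild-type LPS + Dex against LPS (0.64, adjusted p = 0.0051) and DAMPs + Dex against DAMPs (0.43, adjusted p = 0.035). It also added *Tsc22d4* for the wild-type difference of Dex effects (0.42, adjusted p = 0.035). The same gene was added for AMPKa1-/- LPS + Dex against Dex (−0.26, adjusted p = 0.029, 4 of 6 members in place of 3).

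Over all genes, calls for wild-type DAMPs were 228, and 94 with the genotype alone, 1 with the groups alone and 27 to 374 without single libraries. For AMPKa1-/- DAMPs they were 469, and 268 to 311 without DAMPs replicate 1 or 3 or vehicle replicate 2 or 3. For vehicle between genotypes they were 49, and 19 with the groups alone, 27 with a mean of at least 5 FPKM, 92 with no filter and 28 to 32 without AMPKa1-/- replicate 1 or 2 or wild-type replicate 1 or 3. For wild-type LPS + Dex against LPS they were 3871, and 2065 with the groups alone. The 0 calls of the genotype differences became at most 118 with no filter and 12 or fewer elsewhere. Depth limits changes of genes at a few FPKM, such as *Ddit4* without Dex.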

Other observations

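The 23 genes above wild-type in each of the 6 treatments with no overlap, *Sgk1* among them, and the 14 below it were placed on the genome. Of these 37 genes 13 (35.1%) lie on chromosome 4, between positions 132732966 and 156127265 (GRCm38), as against 708 (6.24%) of the genes tested. *Sgk1* is on chromosome 10 and is the single gene of the 37 there.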
